A study of Mus musculus with 24 samples.

Results

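Pomalidomide plus dexamethasone was compared with control in subcutaneous plasmacytomas of CB17-SCID mice, formed by the human multiple myeloma line MM.1S. The groups compared held 6 of the 24 arrays of the series, the 3 labelled Pomalidomide-Dexamethasone and the 3 labelled Control, chosen by their titles. The spread behind the p-values was estimated over all 24 arrays. CB17-SCID mice lack mature T and B cells, so the tumours had an incomplete immune surrounding. Mice of the pair received 8 mg/kg pomalidomide and 0.5 mg/kg dexamethasone by intraperitoneal injection for 2 days. Control tumours are labelled as untreated, and the treatment protocol gives PBS vehicle for that group. Further groups of 3 arrays each were used where they bear on the pair. They were the triple combination, which added 10 mg/kg filanesib, filanesib alone, pomalidomide alone and dexamethasone alone. Filanesib plus pomalidomide and filanesib plus dexamethasone, at the same doses and with 3 arrays each, entered the model and are given for SCARNA12. Whether each array stands for its own mouse is not stated in the labels, and the p-values therefore cover the spread between arrays, which may be technical. The organism label is the mouse, but the probes carry human gene names, and the values are those of the human tumour cells with any mouse RNA that bound to human probes.

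Pomalidomide binds cereblon, the substrate receptor of a CUL4 ubiquitin ligase, and thereby has IKZF1 and IKZF3, transcription factors of lymphoid cells, degraded. In myeloma cells these factors maintain IRF4 and MYC and hold back interferon-stimulated genes. Dexamethasone binds the glucocorticoid receptor, which moves to the nucleus, activates genes such as FKBP5 and can induce the death activator BCL2L11 in lymphoid cells. The drugs are given together as a standard treatment of relapsed myeloma.

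All levels are log2 values of one probe set per gene, so a difference of 1 is a doubling. Genes were called at a limma adjusted p under 0.05 over the 14884 genes tested. Array medians ranged over 3.65 to 3.73 in the series, and correlations among the 6 arrays between 0.983 and 0.989. The median standard error (SE) of a difference between the pair and control was 0.14. The marker genes of myeloma and plasma cells, 8 of 10 listed being measured, had a summed linear signal of 7310 to 8200 in the pair and 7760 to 8750 in control. Of the 14 macrophage markers 6 were measured, all at a mean level of 4.37 or less, with a summed signal of 70.8 to 81.5 in the pair and 70.5 to 81.1 in control. Summed signals were 222 to 258 in the pair and 237 to 289 in control for endothelium, and 144 to 155 in the pair and 120 to 197 in control for fibroblasts. They were 70.5 to 74.9 in the pair and 60 to 73.7 in control for pericytes, and 57.2 to 61.0 in the pair and 54.5 to 58.9 in control for adipocytes. For T and NK cells they were 121 to 125 in the pair and 125 to 146 in control. None of the markers was called, and the 5 erythroid markers were not analysed here.

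Among the genes higher with the pair were the innate receptors CD180 and TLR4, the lysosomal protein CD68 and the interferon-stimulated gene XAF1. Among those lower were regulators of the cell cycle. In all, 24 genes passed (0.161% of those tested), of which 14 rose (0.0941%) and 10 fell (0.0672%). At an unadjusted p under 0.05 there were 1236 genes (8.3%), 593 higher (3.98%) and 643 lower (4.32%). The 3 arrays of the pair did not overlap the 3 of control in any of the 24 genes, and in 15.4% of all genes. The 24 genes were chosen by p on these same arrays, so their lack of overlap is not separate support. The counts of called genes depended on single arrays. Without replicate 1 of the pair 3 genes passed, without its replicate 2 there were 25 and without its replicate 3 there were 4. Without control replicates 1, 2 and 3 the counts were 8, 11 and 3. CD68, TCN2, CDC25A and MIR876 passed in 5 of the 6 omissions, MIR362 in 4, TLR4 and DAPK1 in 3, MYBL2 in 2, 11 genes in 1, and CD180, CEACAM1, SMR3A, CRIM1 and KRTAP20-1 in none. Under each omission all 24 genes kept their direction, which was fixed in advance, since their groups did not overlap.

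**Figure D1:**
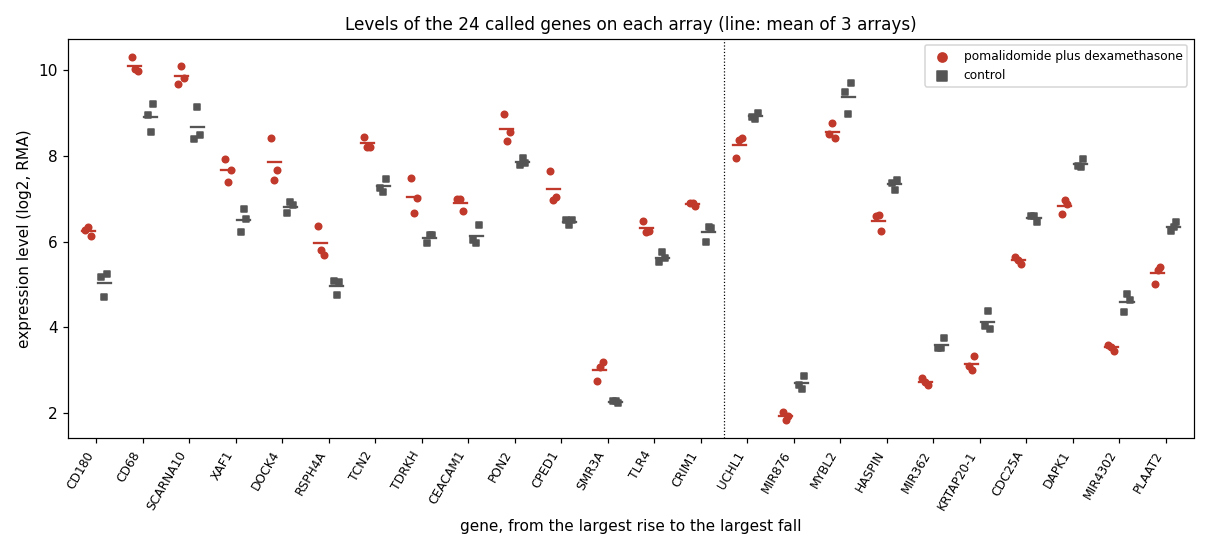
Expression level (log2, vertical axis) of the 24 genes that passed, on each array of pomalidomide plus dexamethasone (red circles) and of control (grey squares), with a line at the mean of 3 arrays; the dotted line separates the 14 genes that rose from the 10 that fell. The 2 groups do not overlap in any gene, and SMR3A, MIR876, MIR362, KRTAP20-1 and MIR4302 lie at low levels.

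Receptors and lysosomal proteins of innate immune cells, several of which B-lineage cells also carry, held 3 of the 14 risen genes. CD180, a Toll-like receptor homologue of B cells, was at 6.28, 6.35 and 6.14 with the pair and at 5.17, 4.71 and 5.25 in control. Each array of the pair was higher than each control array by more than the spread within either group. The difference was 1.22 ± 0.22 (SE, n = 3 each, 2.33-fold, limma adjusted p = 0.0223). TLR4, the receptor for bacterial lipopolysaccharide, was at 6.49, 6.23 and 6.25 with the pair and at 5.52, 5.75 and 5.62 in control, a rise of 0.70 ± 0.11 (limma adjusted p = 0.00573). CD68, a heavily glycosylated lysosomal membrane protein, was at 10.31, 10.02 and 9.99 with the pair and at 8.95, 8.56 and 9.21 in control. It stood at the 98.6 percentile of gene levels and rose by 1.20 ± 0.18 (2.30-fold, limma adjusted p = 0.00573). CD68 also serves as a macrophage marker. The 6 measured macrophage markers given above had overlapping summed signals, at mean levels of 4.37 or less. Of these markers 4 had a positive and 2 a negative difference, and 1 lay above control without overlap, against 7.57% of all genes. In the limma fit 1 had an unadjusted p under 0.05, on the higher side, against 3.98% of all genes. Whether macrophages contribute to the CD68 signal was not tested.

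MILR1, an inhibitory receptor described in mast cells, had the largest positive difference of all genes tested and did not pass. It was at 7.16, 6.26 and 6.18 with the pair and at 5.16, 4.40 and 5.29 in control (1.58 ± 0.39, limma adjusted p = 0.126), without overlap but with a wide spread in both groups. Over the 21 measured genes of the list of innate receptors and lysosome, of 24 listed, the median difference was 0.18, against 0.00 over all genes. In this list 18 differences were positive and 3, of TLR9, CD80 and CTSD, negative. Of its genes 3 rose, none fell, and 9 were above control without overlap, where 7.57% of all genes were. This list and those below were chosen with earlier results of these data known. Their counts are therefore descriptions and not separate support for the called genes.

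TCN2 encodes transcobalamin, which carries vitamin B12 into cells. Its levels of 8.44, 8.22 and 8.22 with the pair stood well clear of 7.26, 7.17 and 7.46 in control, a rise of 0.99 ± 0.16 (limma adjusted p = 0.00573). PON2, an intracellular enzyme with antioxidant activity, was at 8.99, 8.34 and 8.56 with the pair and at 7.78, 7.95 and 7.83 in control (0.77 ± 0.15, limma adjusted p = 0.0241). DOCK4, an activator of the small GTPases RAC1 and RAP1, was at 8.43, 7.45 and 7.68 with the pair and at 6.67, 6.92 and 6.86 in control (1.04 ± 0.20, limma adjusted p = 0.0255). In both PON2 and DOCK4, replicate 1 of the pair was the highest, as it was in 10 of the 14 risen genes. CEACAM1, an adhesion molecule and inhibitory receptor, was at 6.99, 7.0 and 6.71 with the pair and at 6.04, 5.96 and 6.39 in control (0.77 ± 0.16, limma adjusted p = 0.0457). CRIM1, a transmembrane protein that binds bone morphogenetic proteins, was tightly grouped at 6.90, 6.90 and 6.83 with the pair and lay at 5.99, 6.34 and 6.33 in control (0.65 ± 0.14, limma adjusted p = 0.0457).

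The remaining risen genes were of mixed kinds. RSPH4A, a radial spoke protein of motile cilia, rose by 1.0 ± 0.20, TDRKH, a Tudor domain protein of the piRNA pathway, by 0.97 ± 0.18 and CPED1 by 0.76 ± 0.15 (limma adjusted p = 0.0335, 0.0223 and 0.037). SMR3A rose by 0.74 ± 0.15 (limma adjusted p = 0.0402) at a level of 2.74 to 3.20 with the pair and 2.24 to 2.29 in control, which placed its mean over all arrays at the 6.63 percentile of gene levels. SCARNA10, a small Cajal body RNA of the class that guides modification of spliceosomal RNAs, was at 9.69, 10.1 and 9.83 with the pair and at 8.40, 9.14 and 8.49 in control (1.20 ± 0.23, limma adjusted p = 0.0241). Of the 23 measured small Cajal body RNA genes, a class taken up after its values were seen, 17 had a positive and 6 a negative difference, with a median of 0.14, and SCARNA10 was the only one to pass.

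Interferon-stimulated genes lay higher as a group, although a single member passed. XAF1, an interferon-induced partner of XIAP that promotes apoptosis, was at 7.92, 7.40 and 7.68 with the pair and at 6.22, 6.77 and 6.54 in control. It rose by 1.16 ± 0.23 (2.23-fold, limma adjusted p = 0.0378). Of the 34 measured members, of 45 listed, 32 had a positive and 2, SAMD9L and HERC5, a negative difference, 1 rose and none fell. The median difference was 0.30, against 0.00 over all genes, of which 49.5% were positive. Above control without overlap lay 16 members, against 7.57% of all genes, and SAMD9L lay below. The mean level of the list was 6.19, 5.89 and 6.06 on the arrays of the pair and 5.56, 5.73 and 5.71 on those of control, so the groups did not overlap. Replicate 1 of the pair held the highest of its group's levels in 21 of the 34 genes.

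IFI44, an interferon-induced cytoplasmic protein, was at 5.25, 3.93 and 4.73 with the pair and at 3.60, 3.80 and 3.70 in control, and its difference of 0.94 ± 0.25 did not pass (limma adjusted p = 0.18). GBP4, a guanylate-binding protein, was at 7.74, 7.71 and 6.88 with the pair and at 5.89, 5.95 and 6.97 in control, where 1 control array reached the range of the pair (1.17 ± 0.35, limma adjusted p = 0.228). IFITM2, a membrane protein that restricts viral entry, differed by 0.85 ± 0.29 without passing (limma adjusted p = 0.332). The chemokine CXCL10 was at 7.29, 7.36 and 7.39 with the pair and at 5.74, 6.70 and 6.48 in control, a difference of 1.04 ± 0.45 that did not pass (limma adjusted p = 0.539). Its list of 14 measured chemokine and NF-kB genes had a median of 0.01. The 4 measured genes of antigen presentation had a median of 0.03, with B2M, the light chain of MHC class I, at 0.06 ± 0.10.

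**Figure D2:**
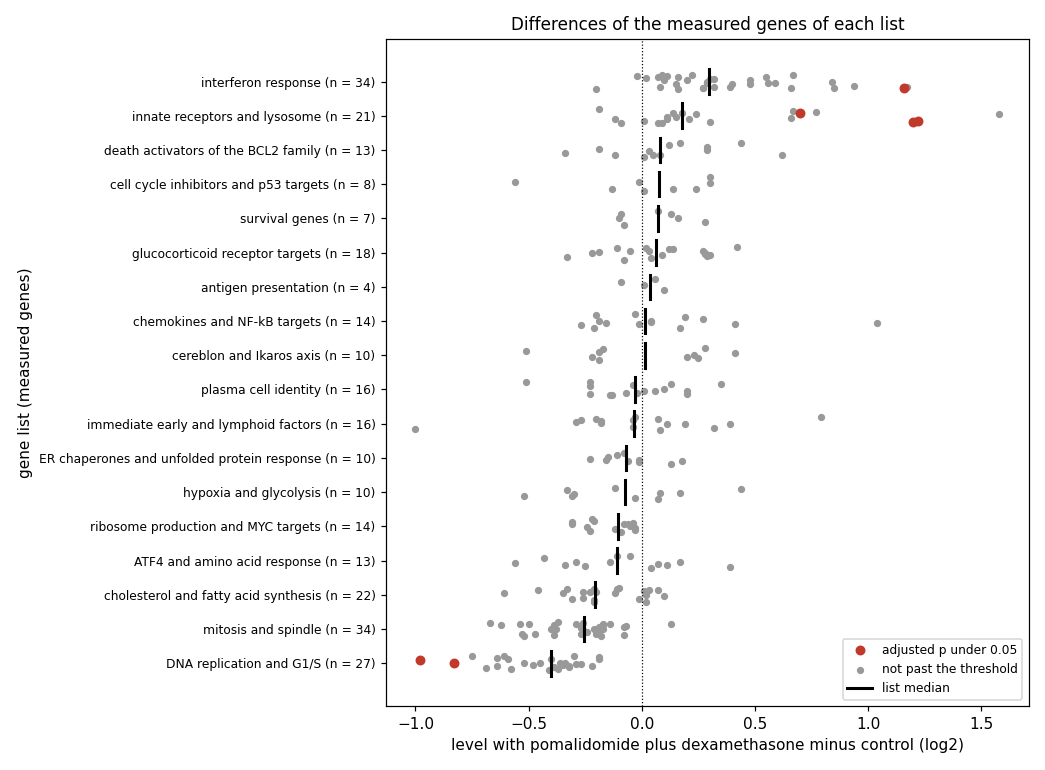
Difference in level between pomalidomide plus dexamethasone and control (log2, horizontal axis) for each measured gene of 18 lists, with the list median as a black bar and genes that passed in red; a gene may stand in more than one list. The interferon list, with a median of 0.30, and the DNA replication list, with a median of -0.40, mark the ends, and 6 genes of the lists passed.

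Genes of DNA replication and the step into S phase lay lower throughout. All 27 measured members, of 41 listed, had a negative difference, with a median of -0.40, and 2 of them fell. CDC25A, a phosphatase that activates the cyclin-dependent kinases of S phase entry, was at 5.65, 5.58 and 5.49 with the pair and at 6.60, 6.60 and 6.45 in control. The 3 arrays of each group lay close together, and CDC25A fell by 0.98 ± 0.16 (SE, n = 3 each, 1.97-fold lower, limma adjusted p = 0.00573). MYBL2, a transcription factor of proliferating cells, was at 8.51, 8.76 and 8.41 with the pair and at 9.49, 8.97 and 9.70 in control, and fell by 0.83 ± 0.17 (limma adjusted p = 0.0363). Below control without overlap lay 16 members, against 7.79% of all genes, and 19 members had an unadjusted p under 0.05 on the lower side, against 4.32% of all genes. The mean level of the list was 7.06, 7.04 and 6.97 with the pair and 7.53, 7.27 and 7.65 in control.

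RRM2, the small subunit of ribonucleotide reductase and a member of the same list, was at 8.74, 8.70 and 8.52 with the pair and at 9.24, 9.21 and 9.57 in control (-0.69 ± 0.15, limma adjusted p = 0.0605). MCM10, a factor that activates replication origins, differed by -0.64 ± 0.15 (limma adjusted p = 0.0789). TRIP13, an ATPase that disassembles the spindle checkpoint complex and is in no list, differed by -0.75 ± 0.16 (limma adjusted p = 0.0605).

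Genes of mitosis and the spindle had smaller differences. Of 34 measured members 33, all but PTTG1, were negative, with a median of -0.26, and none passed. In the limma fit 11 had an unadjusted p under 0.05, all lower, against 4.32% of all genes on that side. Below control without overlap lay 16 of the 34, against 7.79% of all genes. The mean level of the list was 6.89, 6.98 and 6.75 with the pair and 7.06, 7.11 and 7.32 in control. CCNF, the cyclin F substrate receptor of an SCF ubiquitin ligase, differed by -0.67 ± 0.17, NUSAP1, which bundles spindle microtubules, by -0.62 ± 0.15, CDCA8 (borealin) by -0.53 ± 0.16 and INCENP by -0.50 ± 0.16, both of the chromosomal passenger complex. KIF11, the motor that filanesib inhibits, differed by -0.38 ± 0.20 (limma adjusted p = 0.631). HASPIN, the kinase that marks histone H3 at centromeres for the passenger complex, was in no list and fell by 0.85 ± 0.16 (limma adjusted p = 0.0241). It was at 6.60, 6.62 and 6.25 with the pair and at 7.37, 7.20 and 7.45 in control.

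The other fallen genes comprised 4 protein-coding genes and 3 microRNA genes. PLAAT2, a phospholipid acyltransferase, had the largest fall, 1.08 ± 0.20 (2.12-fold lower, limma adjusted p = 0.0241), at 5.02, 5.35 and 5.42 with the pair and 6.25, 6.34 and 6.45 in control. DAPK1, a calmodulin-dependent kinase that promotes cell death, was at 6.64, 6.97 and 6.87 with the pair and at 7.76, 7.74 and 7.94 in control, and fell by 0.99 ± 0.16 (limma adjusted p = 0.00751). UCHL1, a deubiquitinating enzyme first known from neurons, was at 7.96, 8.38 and 8.43 with the pair and at 8.90, 8.87 and 9.0 in control (-0.67 ± 0.13, limma adjusted p = 0.0296). The keratin-associated protein gene KRTAP20-1 fell by 0.97 ± 0.19 at a low level, 3.01 to 3.33 with the pair and 3.97 to 4.38 in control.

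The microRNA genes lay low on the array. MIR362 was at 2.83, 2.73 and 2.65 with the pair and at 3.51, 3.52 and 3.76 in control (-0.86 ± 0.13, limma adjusted p = 0.00573). MIR876 fell by 0.77 ± 0.12 at 1.84 to 2.02 with the pair and 2.57 to 2.87 in control, at the 1.95 percentile of gene levels. MIR4302 fell by 1.06 ± 0.19 on its brighter probe set, while its other probe set differed by -0.24. MIR539 had the largest negative difference of all genes, at 3.49, 3.21 and 3.18 with the pair and 5.24, 5.06 and 5.02 in control, without passing (-1.81 ± 0.40, limma adjusted p = 0.0683). The SD was 0.17 in the pair and 0.12 in control, and the SE of the model also draws on the spread in the other 6 groups. Over the 1098 genes with microRNA symbols, a class taken up after its values were seen, the median difference was -0.01 and 0.273% passed. By background knowledge, such probe sets may read precursor or host transcripts.

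The gene of pomalidomide's receptor, CRBN, and the measured regulators downstream of it did not pass. CRBN was at 7.41, 7.03 and 7.11 with the pair and at 6.67, 6.84 and 6.81 in control, without overlap (0.41 ± 0.11, limma adjusted p = 0.194). IKZF1 differed by 0.25 ± 0.13 (limma adjusted p = 0.659) and IKZF3, at a low level of 3.42 to 3.68 with the pair and 3.55 to 4.03 in control, by -0.17 ± 0.20 (limma adjusted p = 0.917). These are mRNA levels, and the degradation of the proteins was not measured. IRF4, a transcription factor on which myeloma cells depend, was at 9.48, 9.86 and 10.07 with the pair and at 10.3, 10.19 and 10.43 in control, without overlap but short of the threshold (-0.51 ± 0.23, limma adjusted p = 0.548). MYC was at 10.3, 10.62 and 10.34 with the pair and at 10.73, 10.45 and 10.75 in control (-0.22 ± 0.13, limma adjusted p = 0.706). The progenitor transcription factor MYB had a larger difference, -1.0 ± 0.22 (limma adjusted p = 0.0683), at 4.32, 3.96 and 4.33 with the pair and 5.31, 4.93 and 5.36 in control. The cereblon and Ikaros list had a median of 0.02 over 10 measured genes, and ribosome production and MYC targets a median of -0.11 with all 14 measured genes negative and none called in the limma fit or at an unadjusted p under 0.05.

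Plasma cell genes were near control. SDC1, the surface proteoglycan CD138, differed by -0.02 ± 0.10 and CD38, the target of daratumumab, by -0.04 ± 0.10. SLAMF7, the target of elotuzumab, differed by 0.10 ± 0.12. The median of the 16 measured genes of plasma cell identity was -0.03, and none passed in the limma fit, with 1 at an unadjusted p under 0.05, IRF4.

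Classical glucocorticoid targets showed no called gene after dexamethasone was given with pomalidomide. Of 18 measured members, of 22 listed, 12 were positive and 6 negative, with a median of 0.07, and the groups overlapped in every one. In the limma fit 1 member, on the lower side, had an unadjusted p under 0.05. FKBP5, a chaperone that limits the glucocorticoid receptor and is a common readout of its activity, was at 5.28, 5.50 and 5.31 with the pair and at 5.57, 5.17 and 5.68 in control (-0.11 ± 0.17, limma adjusted p = 0.938). KLF9, a transcription factor induced by glucocorticoids in many tissues, differed by 0.30 ± 0.21 and PIK3IP1, an inhibitor of PI3 kinase, by 0.42 ± 0.23. The glucocorticoid receptor gene NR3C1 and TSC22D3 were not analysed here.

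Among death genes, BMF, a BH3-only activator, had the smallest p. It was at 7.55, 7.09 and 6.98 with the pair and at 6.50, 6.55 and 6.70 in control, a difference of 0.62 ± 0.14 that did not pass (limma adjusted p = 0.0815). BCL2L11 was at 7.54, 6.95 and 7.22 with the pair and at 6.62, 7.0 and 7.21 in control, with overlap (0.29 ± 0.21, limma adjusted p = 0.82). The survival genes BCL2 and MCL1 differed by 0.28 ± 0.18 and -0.09 ± 0.12, and neither passed. The value of MCL1 was 0.00 without control replicate 3. The death activators had a median of 0.08 over 13 measured genes, which was -0.01 without replicate 2 of the pair.

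Metabolic lists had negative medians and no called gene. Cholesterol and fatty acid synthesis had a median of -0.21 with 6 of 22 measured genes positive. In the limma fit 4 of them had an unadjusted p under 0.05, all lower, against 4.32% of all genes on that side. SREBF1, a transcription factor of lipid synthesis, differed by -0.61 ± 0.17 and INSIG1, which retains sterol sensors in the endoplasmic reticulum, by -0.46 ± 0.15 (limma adjusted p = 0.194 and 0.317). In the ATF4 and amino acid list, with a median of -0.11 over 13 genes, the serine synthesis enzymes PSAT1, PHGDH and PSPH differed by -0.56 ± 0.17, -0.43 ± 0.12 and -0.34 ± 0.13, whereas ATF5 differed by 0.39 ± 0.13. Medians were -0.07 for endoplasmic reticulum chaperones, -0.08 for hypoxia and glycolysis, -0.03 for immediate early and lymphoid factors, 0.07 for survival genes and 0.07 for cell cycle inhibitors. Of the immediate early genes IER2 was at 4.67, 4.80 and 4.73 with the pair and at 3.78, 4.10 and 3.96 in control (0.79 ± 0.19, limma adjusted p = 0.0981).

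What the pair adds to each drug was tested directly. Against dexamethasone alone 4 genes rose (0.0269%) and none fell in the limma fit, with 825 genes at an unadjusted p under 0.05 (5.54%). CD68 was at 10.31, 10.02 and 9.99 with the pair and at 9.08, 9.02 and 8.91 with dexamethasone alone (1.11 ± 0.18, limma adjusted p = 0.0129). TCN2 rose by 1.14 ± 0.16 (limma adjusted p = 0.00372), PON2 by 0.83 ± 0.15 (limma adjusted p = 0.0299) and PAG1, an adaptor that restrains SRC kinases in lymphocytes, by 0.69 ± 0.11 (limma adjusted p = 0.0129). PAG1 was at 5.50, 5.32 and 5.63 with the pair, 4.82, 4.83 and 4.74 with dexamethasone alone and 4.97, 4.88 and 5.12 in control. The count was 0 without replicate 1 of the pair, 9 (8 higher and 1 lower) without its replicate 2 and 1 without its replicate 3. Without dexamethasone replicate 3 most calls were lower instead, with 6 genes called, 1 higher and 5 lower, of which 1 was among the 4. With array weights 19 genes were higher and 9 lower. CXCL10, at 6.16, 5.31 and 3.47 with dexamethasone alone, differed by 2.36 ± 0.45 and did not pass (limma adjusted p = 0.0778).

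Against pomalidomide alone 1 gene rose (0.00672%) and none fell in the limma fit, with 1423 genes at an unadjusted p under 0.05 (9.56%). It was GSTM2P1, a pseudogene of a glutathione transferase, at 4.43, 4.55 and 4.57 with the pair and 3.71, 4.05 and 3.78 with pomalidomide alone (0.67 ± 0.11, limma adjusted p = 0.0326). Pomalidomide alone had the widest spread between arrays, with residual SDs of 0.238 to 0.354 against 0.155 to 0.221 in the other 21 arrays. The count was 105 without pomalidomide replicate 2, 6 without its replicate 3, and 0 without its replicate 1 or without any one of the 3 arrays of the pair. None of the 24 genes called against control passed against pomalidomide alone, where 0.00672% of all genes did. Of the 24, 6 did not overlap with pomalidomide alone. CEACAM1, TLR4 and CRIM1 lay above it, and SCARNA10, MIR876 and PLAAT2 lay below it. The share over all genes is not given here, so the 6 cannot be read as many or few. With the pomalidomide-alone arrays left out of the model, the pair differed from control in 56 genes rather than 24.

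The single drugs share the control arrays with the pair, so their differences from control are given side by side for some members and not as separate evidence. CD68 differed by 1.20 with the pair, 0.94 with pomalidomide alone and 0.10 with dexamethasone alone. TCN2 differed by 0.99 with the pair, 0.88 with pomalidomide alone and -0.15 with dexamethasone alone. XAF1 differed by 1.16 with the pair, 1.5 with pomalidomide alone and -0.03 with dexamethasone alone. In these genes of vitamin transport, lysosomes and the interferon response, dexamethasone alone lay close to control. CDC25A differed by -0.98 with the pair, -0.71 with pomalidomide alone and -0.53 with dexamethasone alone. MYBL2 differed by -0.83 with the pair, -1.01 with pomalidomide alone and -0.29 with dexamethasone alone. PLAAT2 differed by -1.08 with the pair and by -0.63 with either drug alone. CRIM1 stood at 0.65 with the pair, 0.09 with pomalidomide alone and 0.06 with dexamethasone alone. The difference of CRIM1 between the pair and what the single drugs add up to was 0.50 and did not pass (limma adjusted p = 0.532). The interferon list had a median of 0.30 with the pair, 0.53 with pomalidomide alone and -0.09 with dexamethasone alone. The replication list had a median of -0.40 with the pair, -0.65 with pomalidomide alone and -0.21 with dexamethasone alone. Set directly against pomalidomide alone, the medians were -0.27 for the interferon list and 0.21 for the replication list, with no member called in either.

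**Figure D3:**
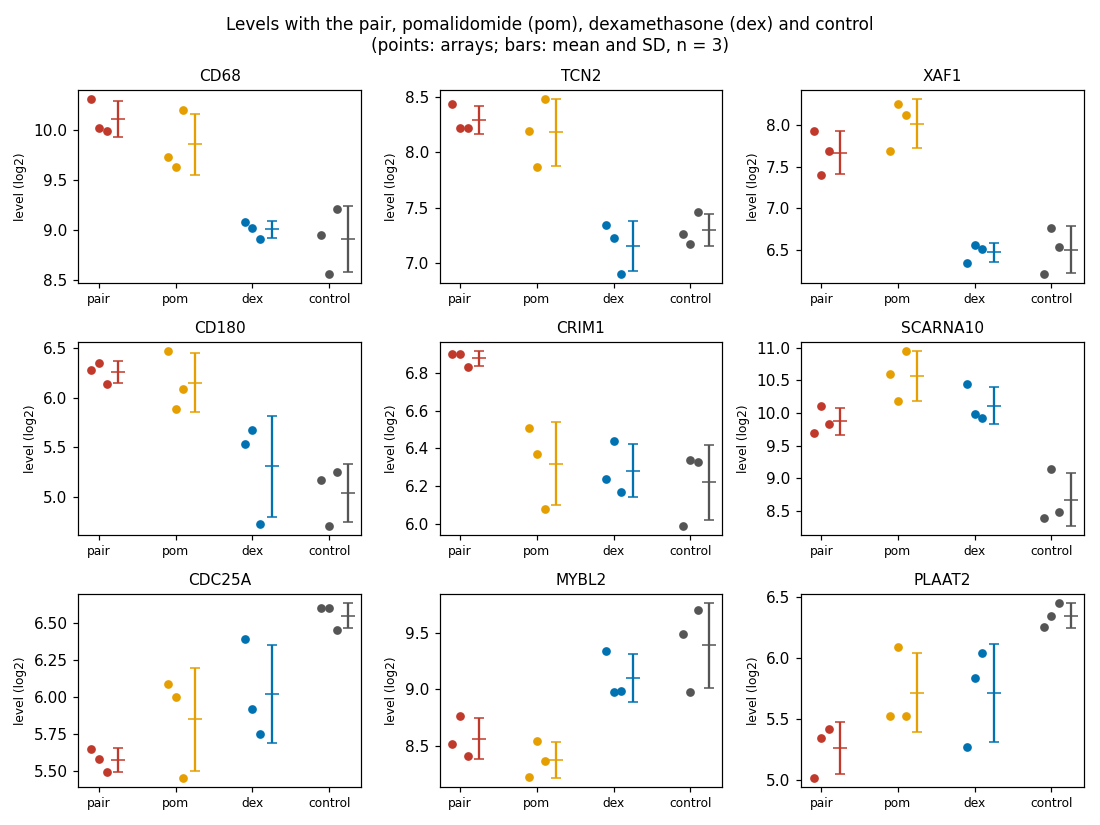
Levels (log2) of 9 of the 24 genes on each array of the pair, pomalidomide alone (pom), dexamethasone alone (dex) and control, with the mean and SD of 3 arrays. CD68, TCN2 and XAF1 lie high in both groups with pomalidomide, CRIM1 lies high in the pair, and SCARNA10 lies low in control.

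The difference of the pair was tested against the sum of the differences of the single drugs. This interaction passed in 5 genes (0.0336%), of which 4 were small Cajal body RNAs, with 1163 genes at an unadjusted p under 0.05 (7.81%). SCARNA10 was at 9.69, 10.1 and 9.83 with the pair, 10.59, 10.18 and 10.94 with pomalidomide alone, 10.44, 9.98 and 9.92 with dexamethasone alone and 8.40, 9.14 and 8.49 in control. Each treated group lay above control, and the mean of the pair was 9.88, under 10.57 with pomalidomide alone and 10.11 with dexamethasone alone. SCARNA10 averaged 9.81 with filanesib alone and 9.49 in the triple combination, against 8.67 in control. Over the 23 measured genes of this class the median difference from control was 0.14 with the pair. It was 0.28 with pomalidomide alone and 0.38 with dexamethasone alone. The interaction of SCARNA10 was -2.14 ± 0.32 (limma adjusted p = 0.0115). SCARNA1 was at 2.67, 3.45 and 3.12 with the pair and at 2.79, 2.63 and 2.53 in control, while each single drug lay between 3.89 and 5.76 (interaction -4.12 ± 0.65, limma adjusted p = 0.0123). The interaction was -2.54 ± 0.47 for SCARNA3 and -3.15 ± 0.57 for SCARNA6 (limma adjusted p = 0.0445 for both). ZSCAN16, a zinc finger gene, went the other way, with an interaction of 1.07 ± 0.20 (limma adjusted p = 0.0445). It was at 4.82, 4.98 and 5.19 with the pair, 4.41, 4.58 and 4.35 with pomalidomide alone, 4.39, 4.98 and 4.80 with dexamethasone alone and 5.29, 5.13 and 5.33 in control. The count of 5 was 0 without replicate 1 of the pair, dexamethasone replicate 1 or control replicate 3, 2 or 3 without 5 other single arrays, and 19 without pomalidomide replicate 2.

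The same pair was also given beside filanesib, in 6 arrays outside the 2 groups of the comparison with control. These arrays entered the model, so they share in the spread behind the p-values that called the 24 genes. The triple combination against filanesib alone called 66 genes (0.443%), of which 24 rose (0.161%) and 42 fell (0.282%), and 1769 genes (11.9%) had an unadjusted p under 0.05. The groups did not overlap in 20% of all genes, 9.29% higher and 10.7% lower. Of the 14 genes that rose with the pair, 13 were higher in the triple combination than in filanesib alone, 11 of them without overlap and 4 past the threshold. All 10 genes that fell with the pair were lower in the triple combination, 7 without overlap and 3 past the threshold. Together 23 of 24 (95.8%) had the same direction, against 59.6% of all genes tested. In the other direction, 23 of the 24 genes raised beside filanesib and 39 of the 42 lowered there had the same direction in the pair against control. The counts of 66 were 8 without filanesib replicate 1, 83 without its replicate 2, 9 without its replicate 3, and 11, 33 and 13 without replicates 1, 2 and 3 of the triple combination.

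The 7 genes called in both settings were XAF1, DOCK4, CD68, CPED1, PLAAT2, MIR876 and UCHL1. XAF1 was at 8.57, 7.99 and 7.93 in the triple combination and at 6.31, 6.70 and 6.26 in filanesib alone (1.74 ± 0.23, limma adjusted p = 0.00117). DOCK4 rose by 1.39, CPED1 by 0.74 and CD68 by 0.94 beside filanesib, with CD68 at 10.12, 9.83 and 9.70 in the triple combination and 8.93, 8.84 and 9.07 in filanesib alone. PLAAT2 fell by 1.03, UCHL1 by 0.85 and MIR876 by 0.79 there. CDC25A, which fell with the pair, differed by -0.32 beside filanesib (limma adjusted p = 0.427), and DAPK1 by -0.25 (limma adjusted p = 0.599). CRIM1 and SMR3A differed by 0.06 and 0.01 beside filanesib.

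Of the lists, the interferon genes had a median of 0.53 beside filanesib, with 3 called, XAF1, IFI44 and GBP4. IFI44 rose by 1.54 and GBP4 by 1.61 there. The list of innate receptors and lysosome, which had a median of 0.18 and 18 of 21 positive without filanesib, had a median of -0.04 beside it, with 9 positive, 12 negative and CD68 the one gene called. CD180 and TLR4 differed by 0.64 and 0.44 beside filanesib and did not pass (limma adjusted p = 0.223 and 0.0872). The difference between the 2 list medians was not tested. The replication list had a median of -0.29 with 26 of 27 negative, all but DNMT1, and 1 called, CDC45, a subunit of the replicative helicase. The mitosis list had a median of -0.02, against -0.26 without filanesib, a difference that was not tested. The mean level of the mitosis list was 7.36, 7.62 and 7.49 in the triple combination. In filanesib alone it was 7.65, 7.13 and 7.69, so replicate 2 lay below and the other replicates above every array of the triple combination. AMPD1, the muscle form of AMP deaminase, fell by 1.40 beside filanesib (limma adjusted p = 0.0308) and differed by -1.19 ± 0.30 with the pair against control (limma adjusted p = 0.126). CLU, the secreted chaperone clusterin, fell by 1.21 beside filanesib (limma adjusted p = 0.00185) and differed by -0.28 ± 0.18 without it.

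The 2 effects of the pair, with and without filanesib, differed past the threshold in a single gene (0.00672%), with 585 genes at an unadjusted p under 0.05 (3.93%). SCARNA12 was at 10.27, 10.12 and 9.88 in the triple combination and 10.5, 11.35 and 11.02 in filanesib alone, and at 10.77, 10.85 and 10.68 with the pair and 9.76, 10.25 and 9.72 in control. The pair's effect was -0.86 beside filanesib and 0.86 without it, a difference of -1.72 (limma adjusted p = 0.0264) that was lost in 9 of the single-array omissions. A missed threshold elsewhere does not show that the effects were alike. SCARNA10 differed by -0.32 ± 0.23 beside filanesib, the one gene of the 24 with an opposite sign there. Of the 23 measured small Cajal body RNA genes, 3 had a positive difference beside filanesib, with a median of -0.53. Without filanesib 17 were positive, with a median of 0.14. The class was taken up after its values were seen, and its shift was not tested.

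**Figure D4:**
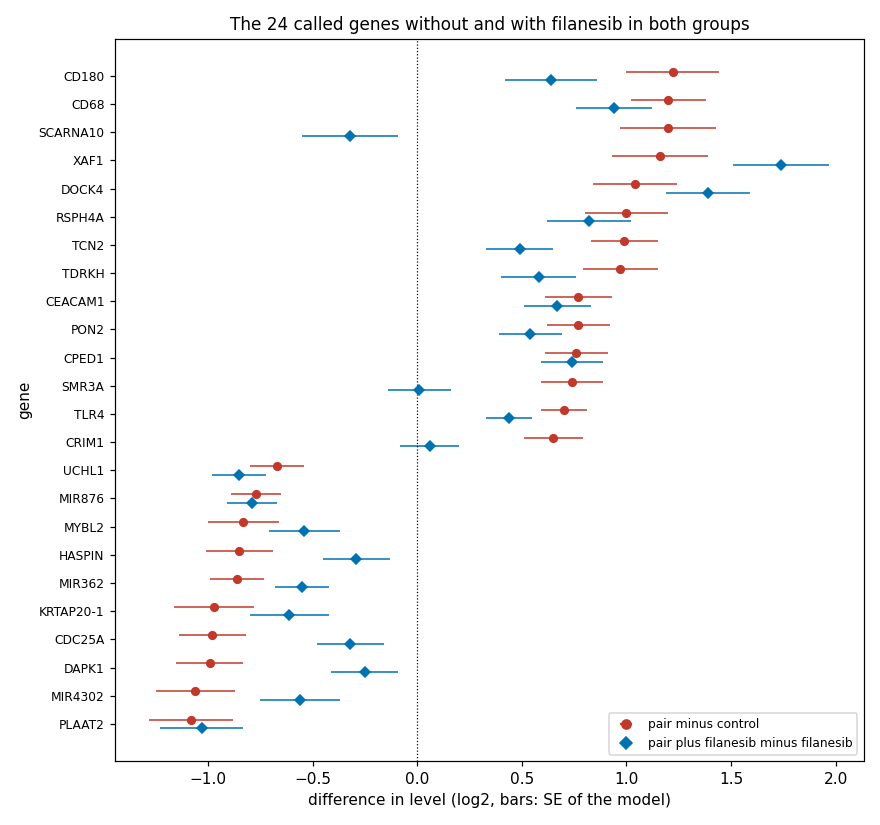
Differences in level (log2, horizontal axis, bars are SE of the model) of the 24 genes for the pair minus control (red circles) and for the pair plus filanesib minus filanesib (blue diamonds). The 2 differences have the same sign in 23 of 24 genes, and SCARNA10 lies at 1.20 without and -0.32 with filanesib.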

How the data were processed

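RNA of MM.1S tumours was hybridised to human Affymetrix arrays. The deposited values are log2 expression levels per probe set, which the authors made with RMA; the submitters' processing notes name Affymetrix Expression Console and RMA, and versions are not given in the sources used here. RMA quantile normalisation makes arrays alike, so a shift shared by most genes would not be seen. Of 53617 probe sets, 16098 had 1 gene symbol in the platform annotation, none had several and 37519 had none; for 779 genes with several probe sets the one with the highest mean over 24 arrays was kept, leaving 14884 genes, with no filter on dim genes. A linear model with 8 group means was fitted to all 24 arrays (16 residual degrees of freedom) with limma 3.58.1 (eBayes) in R 4.3.3; p-values are two-sided and Benjamini-Hochberg adjusted within a comparison. Precision is limited by the number of arrays. The code was tested on simulated data. Between arrays of the pair and control with the same replicate number, deviations from the group mean had correlations of -0.0992, -0.0978 and -0.00918. No block was used in the main model. Whether replicate numbers mark a batch shared across the 8 groups was not tested. Named genes were the called ones, up to 12 per direction, topped up by p, the 4 or fewer genes of a list with the lowest p, called microRNA genes and a series of interest; CRIM1, SAMD9L, HERC5, TLR9, CD80, CTSD, PTTG1, DNMT1 and CDC45, outside this rule, were named after their values were seen. Members and gene lists were chosen with earlier results of these data known. Alternatives covered normalisation, dim genes, weights, variance prior, replicate block, minimum change, probe sets and samples.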

Additional observations from a re-analysis of the deposited data

Results flagged for a closer look

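The effects of pomalidomide and dexamethasone differed from additive, by a test of the interaction, in 5 genes. The interaction was -4.12 for SCARNA1, -2.14 for SCARNA10, -2.54 for SCARNA3 and -3.15 for SCARNA6, where the pair lay below the sum of the single drugs, and 1.07 for ZSCAN16, where it lay above. In SCARNA3 the pair was at 8.03, 9.5 and 8.36, pomalidomide alone at 9.60, 9.26 and 10.54, dexamethasone alone at 10.27, 9.59 and 9.98 and control at 8.54, 8.78 and 8.41. Replicate 2 of the pair was the highest of its group in all 4 of these small Cajal body RNAs. The effect of the pair beside filanesib minus its effect without filanesib passed for SCARNA12, at -1.72. Levels of SCARNA12 averaged 10.09 in the triple combination, 10.46 with filanesib plus pomalidomide, 10.54 with filanesib plus dexamethasone and 10.95 with filanesib alone.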

How the results depend on the processing

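Groups held 3 arrays each and differed in spread. All 24 genes kept their sign in every alternative, which for the omission of single arrays was fixed by the lack of overlap. None passed in all, since a minimum change of 1.5-fold left 0 calls in each comparison. For the pair against control the counts of rises and falls were 24 (14 and 10) as reported, 138 (66 and 72) with array weights, 15 (3 and 12) with every probe set tested, 30 (14 and 16) with only the compared arrays, 56 (29 and 27) without the 3 arrays of pomalidomide alone, and 3 to 25 (0 to 13 and 1 to 12) without single arrays. The replicate block gave 19 (10 and 9), and protein-coding genes only, an alternative chosen after the data were seen, gave 25.

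Against dexamethasone the count of 4 was 8 without dim genes and also without the pomalidomide arrays, 28 with array weights, 2 with every probe set and 0 to 9 without single arrays. Against pomalidomide the count of 1 was 0 without dim genes, with array weights, with a trended and robust prior, with every probe set and with only the compared arrays, and 0 to 105 without single arrays. The interaction count of 5 was 2 with quantile normalisation, centring or the replicate block, 3 without dim genes or with array weights, 1 with the trended prior or only the compared arrays, 9 with every probe set and 0 to 19 without single arrays. For the triple combination against filanesib the count of 66 was 452 with array weights, 24 with every probe set, 41 with only the compared arrays, 130 without the pomalidomide arrays and 8 to 83 without single arrays. The difference between the effects of the pair had 1 gene, which was 2 with array weights, 0 with the replicate block or only the compared arrays, and 0 to 1 without single arrays. Without single arrays the value of MCL1 ranged over -0.18 to 0.00, that of SDC1 over -0.07 to 0.02, that of SCARNA3 over -0.38 to 0.35 and the median of the death activators over -0.01 to 0.14. SCARNA3 was at -0.04 with array weights, and B2M at -0.07 as the mean of its probe sets. The cause of these changes was not tested.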

Other observations

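Probe sets without a gene symbol hold differences of the pair from control as well. With every probe set tested, 15 of all 53617 probe sets passed in the limma fit, 3 higher and 12 lower. Among them were 8 of the 37519 probe sets without a symbol. All 8 were lower with the pair, with differences of -2.45 to -0.90 and limma adjusted p of 0.021 to 0.0433. The largest, probe set 17006761, was at 3.66, 4.47 and 4.44 with the pair and at 6.80, 6.31 and 6.82 in control (-2.45 ± 0.38). Probe set 16668768 was at 3.69, 3.31 and 3.68 with the pair and at 5.65, 5.59 and 5.41 in control (-1.99 ± 0.31).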
